A study of Mus musculus with 12 samples.

Results

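Small bowel RNA from the 2'-fucosyllactose arm of a mouse resection study was compared after and before ileocecal resection, the removal of the last stretch of ileum together with the cecum. The comparison took the 3 libraries labelled after resection in this arm (Post 2'-FL) and the 3 labelled before it (Pre 2'-FL), chosen by their labels alone, which makes 6 of the 12 libraries of the series. All mice were male C57BL/6, and the labels give them an age of 8 to 10 weeks at resection. 2'-FL is a fucose-carrying sugar of human milk. Mice of the supplemented arm were offered 2.5 g/L of it starting with the operation (day 0), so on the labels' schedule the Pre 2'-FL group had not yet received it, although its libraries carry the supplement label. Post 2'-FL mice were sampled 8 weeks later, after a liquid diet from day 7 and a return to chow. The other 6 libraries, 3 before and 3 after resection without the supplement, entered the model and served as the control arm. One protocol entry places every collection at 8 weeks after resection and so conflicts with the Pre labels, which were followed. The labels name neither the bowel segment, nor the mouse behind each number, nor whether libraries of a group came from separate mice. Age, diet, supplement and segment therefore cannot be told apart from resection, and every p-value below measures the spread between these libraries, which may be technical.

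The terminal ileum recovers bile acids and cobalamin, and in answer to bile acids it secretes FGF15, which restrains bile acid synthesis in the liver. After its removal the remaining small bowel is known to lengthen its villi and crypts, a response called intestinal adaptation, while enterocytes keep absorbing lipid, sugar and peptides. Paneth cells at the crypt base secrete defensins and lysozyme, and enterocytes also make cholesterol through the mevalonate pathway, which the transcription factor SREBP2 drives when sterols run short.

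Total counts ran from 5663275 to 7081702 in Pre 2'-FL and from 6143667 to 6781258 in Post 2'-FL, and 13154 of 35791 genes had enough counts to be tested. Pre 2'-FL 1 stood apart from the other 2 libraries of its group: the mean chi-square per gene was 78.7 and 80.3 against them and 13.8 between them. It held less of the Paneth cell genes and more of the fat tissue genes, so results that rest on it are given with and without it. Post 2'-FL libraries were spread too: the chi-square was 56.7 and 35.2 for Post 2'-FL 1 against libraries 2 and 3, and 30.5 between those. The correlation of log2 CPM was 0.953 between Post 2'-FL 1 and 2, and 0.957 and 0.962 between Pre 2'-FL 1 and its group. The gland peptide gene Esp38 took 1.25% to 10.5% of the counts in Pre 2'-FL and 0.995% to 1.78% in Post 2'-FL. Small bowel identity was plain in all 6 libraries, where the enterocyte fatty acid binding protein gene Fabp2 reached 3024 to 42484 CPM (counts scaled to the TMM library size). Of 9 genes for pancreatic enzymes only Cela1 had enough counts to be tested. Whole tissue was counted, so that fewer cells of a type and less RNA per cell cannot be told apart.

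The change followed transcript length across the genes tested. In the tenth of genes with the shortest transcripts (up to 1211 nt) the median log2 change, Post minus Pre, was 1.20, and in the tenth with the longest (from 6478 nt) it was -1.20. The median fell at each step between these classes. Of the shortest class 70.3% of genes were called higher and 3.06% lower, and of the longest 3.91% and 67.7%. The threshold for a call was an adjusted p under 0.05. Spearman's rho between length and log2 change was -0.56 over 13053 genes, which are not independent replicates, and -0.28 in the control arm. Within libraries, rho between length and the level relative to the gene's mean over all 12 libraries was 0.50, 0.39 and 0.36 in Pre 2'-FL 1 to 3 and -0.44, -0.56 and -0.60 in Post 2'-FL 1 to 3. The slope thus had opposite signs in the 2 groups and the same sign within each. GC content gave a weaker relation, and rho was most negative in Post 2'-FL 1 (-0.39). In the control arm rho was 0.42, 0.45 and 0.27 in libraries 1 to 3 before resection. It was -0.04, -0.21 and 0.35 in control libraries 1 to 3 after resection, so resected libraries did not all share a negative slope. Batches are not named in the labels, which leaves no within-batch value to give. Within the 2'-FL arm the trend cannot be told apart from resection, and its cause was not tested.

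**Figure D1:**
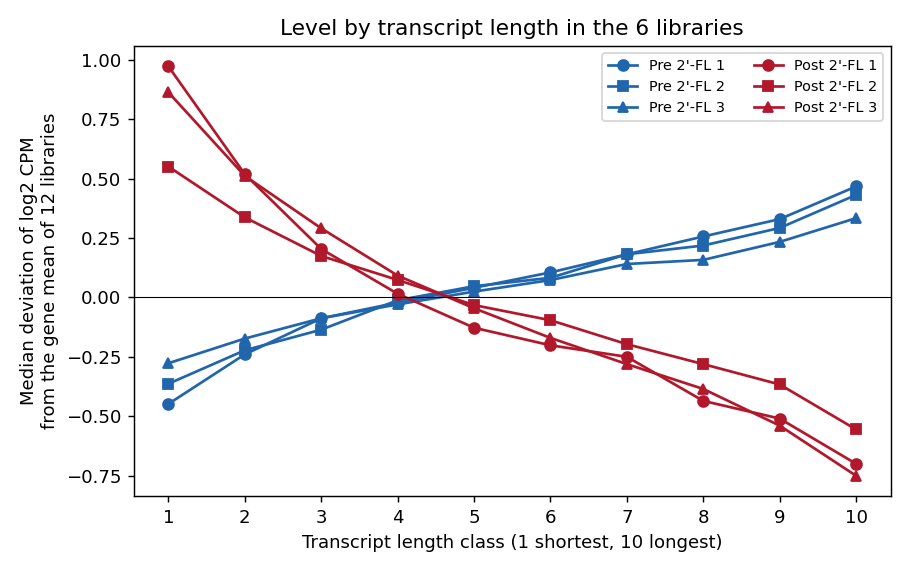
Median deviation of log2 CPM from the gene's mean over all 12 libraries (vertical axis) in 10 classes of transcript length (horizontal axis, shortest to longest), 1 line per library. The Pre 2'-FL lines rise from as low as -0.45 to as high as 0.47 and the Post 2'-FL lines fall from as high as 0.97 to as low as -0.75.

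Every change was therefore read in both ways, as tested and after removing each library's trend on transcript length and GC content (corrected). The correction brought rho to -0.05 and the class medians to between -0.12 and 0.23. As tested 7274 genes were called, 3325 higher (25.3% of the genes tested) and 3949 lower (30.0%), in all 55.3%. Corrected, 4644 of 13053 were called (35.6%), 2692 higher (20.6%) and 1952 lower (15%). Higher genes thus made up 45.7% of the calls as tested and 58.0% of those corrected, and the median log2 change of all genes was -0.13 and 0.01. Called in the same direction both ways were 3334 genes (25.5%), 1858 higher (14.2%) and 1476 lower (11.3%), which is 46.1% of the calls as tested and 71.8% of the corrected calls. Below, a gene is said to have risen or fallen only where it was called in the same direction in both fits. Not called once corrected were 1394 genes called higher and 2414 called lower as tested. Another 86 genes were called in both fits with opposite signs. The libraries of the 2 groups did not overlap for 8103 genes (61.6%).

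**Figure D2:**
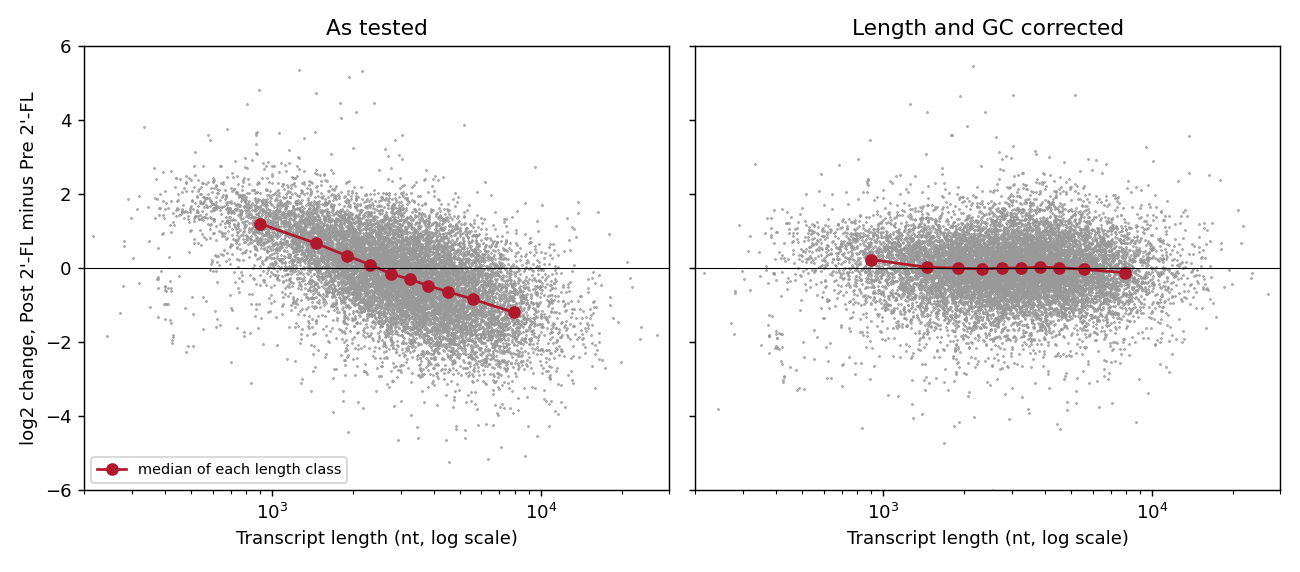
Log2 change, Post 2'-FL minus Pre 2'-FL, against transcript length in nucleotides (log axis), 1 grey point per gene, as tested (left) and with length and GC corrected (right). Red points are the medians of the 10 length classes, which run from 1.20 to -1.20 on the left and stay between -0.12 and 0.23 on the right.

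Length is a property of the chosen transcript, so 2 other choices were tried, the protein-coding transcript of middle length and the shortest curated one. Called in the same direction as tested and under all 3 choices were 2827 genes (21.7%), 1571 higher (12%) and 1256 lower (9.62%). Among the 179 genes named by rule 152 met this condition. Of these 132 were still called as tested with each of the 6 libraries left out in turn, and 103 in both fits. Where a named gene below lost its call without a library, or its called value moved by over 1.5 times, the value without that library is given.

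Genes of cholesterol synthesis rose together and against the length trend. Of 25 tested members of the list of cholesterol synthesis genes and SREBP2 targets, 16 rose and 0 fell, and 14 of these rose under all 3 length choices. Separately, 18 were called higher and 1 lower as tested, and 19 higher and 0 lower corrected. The list's median was 1.04 as tested and 1.29 corrected, beside -0.13 and 0.01 for all genes, and 23 of 25 members lay above the median of their own length class. Their summed level was 1524, 1374 and 1609 CPM in Pre 2'-FL 1 to 3 and 3147, 2697 and 3479 CPM in Post 2'-FL 1 to 3. The groups did not overlap. Leaving out any 1 library left 16 to 18 members called higher as tested and 14 to 19 corrected.

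The promoters of the 3 members with the smallest corrected p are shown because SREBP2 is known to act on such genes together with the factor NF-Y, whose site is the CCAAT box. Each run is RefSeq promoter sequence (build GRCm38.p6) from 250 bases before the transcription start to 50 after it, on the gene's own strand, with CCAAT or its reverse complement in capitals.
Tm7sf2, chr19:6067801-6068100, minus strand: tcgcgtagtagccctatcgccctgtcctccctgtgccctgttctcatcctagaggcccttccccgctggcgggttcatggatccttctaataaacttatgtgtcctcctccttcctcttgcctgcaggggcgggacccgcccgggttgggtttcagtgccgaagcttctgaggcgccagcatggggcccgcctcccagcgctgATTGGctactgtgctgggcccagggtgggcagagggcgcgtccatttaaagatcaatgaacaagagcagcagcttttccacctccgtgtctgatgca
Mvk, chr5:114444019-114444318, plus strand: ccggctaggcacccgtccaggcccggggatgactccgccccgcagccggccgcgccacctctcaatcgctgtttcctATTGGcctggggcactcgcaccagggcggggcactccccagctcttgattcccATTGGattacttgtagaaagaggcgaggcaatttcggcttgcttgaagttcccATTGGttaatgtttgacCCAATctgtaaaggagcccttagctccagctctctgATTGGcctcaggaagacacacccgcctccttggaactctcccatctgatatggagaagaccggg
Insig1, chr5:28071162-28071461, plus strand: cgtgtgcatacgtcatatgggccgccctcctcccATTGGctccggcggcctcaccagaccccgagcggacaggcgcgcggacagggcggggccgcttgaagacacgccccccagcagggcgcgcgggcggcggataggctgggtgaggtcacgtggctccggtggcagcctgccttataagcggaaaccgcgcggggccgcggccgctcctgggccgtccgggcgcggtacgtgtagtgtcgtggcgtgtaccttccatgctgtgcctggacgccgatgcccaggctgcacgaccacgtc
The box lay 47 bases before the start in Tm7sf2 and 216 before it in Insig1, and Mvk held 5, the nearest 14 bases before the start. Of the cholesterol genes that rose, 12 had such a window and 11 of those held CCAAT on either strand, beside 43.0% of 10442 tested genes with a window and 37.4% of all 32851 windows. Over the whole list, whether the gene rose or not, 16 of 17 genes with a window held it. The box thus did not set the members that rose apart from the rest of the list. The sterol element searched as TCACNCCAC was in 0 of the 12 windows and in 1.34% of the tested genes' windows. A match is a description of these letters within the window and says nothing on binding.

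Tm7sf2 encodes a sterol reductase of the late pathway (Entrez 73166, chromosome 19, 6062821 to 6067850). It stood at 10.4, 13.4 and 11 CPM in Pre 2'-FL 1 to 3 and at 58.1, 71.3 and 72.7 CPM in Post 2'-FL 1 to 3. No library of one group reached the other. The log2 change was 2.54 ± 0.27 (SE, adjusted p = 3.14e-05) and 2.21 ± 0.25 corrected (adjusted p = 0.000105). Mvk, mevalonate kinase (Entrez 17855, chromosome 5, 114444264 to 114460591), went from 12.8, 10.6 and 12 CPM to 36.0, 45.9 and 58.2 CPM, a change of 1.98 ± 0.28 (1.95 ± 0.23 corrected, adjusted p = 0.000125). Insig1 encodes the membrane protein that holds SREBP precursors back when sterols are plentiful (Entrez 231070, chromosome 5, 28071412 to 28078662). Its levels were 53.7, 36.4 and 53.9 CPM before and 267, 164 and 328 CPM after resection, a change of 2.40 ± 0.36 (2.40 ± 0.37 corrected, adjusted p = 0.000384). Again the groups were apart in both genes.

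The rise covered most steps of the route from acetyl-CoA units to sterol. Among the early enzymes Pmvk rose by 2.27 as tested (1.77 corrected), Mvd by 2.00 (2.03), Idi1 by 2.22 (1.83) and Fdps by 1.73 (1.22). The squalene and lanosterol enzymes Fdft1 (1.40, 2.06 corrected), Sqle (1.04, 1.16) and Cyp51 (2.21, 2.56) rose as well. Lss, at 0.64 as tested, was called only when corrected (1.59), and Hmgcs1 (0.86) only as tested (0.80 corrected). Srebf2 itself was the 1 member called lower as tested (-0.85) and stood at 0.44 corrected, not called.

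Sterol export went the other way. Of 14 tested genes of the list of LXR targets and sterol efflux, 1 rose and 6 fell, with a median of -1.29 as tested and -0.77 corrected. Abca1, the cholesterol efflux transporter, had 68.8, 89.7 and 78.6 CPM before and 10.0, 6.93 and 7.07 CPM after resection, with no overlap. It fell by 3.30 on the log2 scale as tested (SE 0.34, adjusted p = 2.96e-05) and by 2.07 corrected. Abcg1 (-2.52, -1.40 corrected), the apical sterol pump gene Abcg5 (-1.19, -1.20) and Mylip (-1.96, -1.68), which encodes a ubiquitin ligase, also fell. Abcg8, the partner of Abcg5, was at -1.33 as tested and -0.63 corrected, where it was not called. Nr1h3, which encodes the receptor LXR-alpha itself, rose from 46.3, 36.3 and 46.6 CPM to 159, 119 and 130 CPM (1.66 ± 0.23, 1.78 ± 0.26 corrected). The lipogenic members split under correction: Scd1 and Acaca fell (-3.61 and -1.12 corrected), while Fasn (-2.83 as tested) and Srebf1 (-1.23) were not called corrected (-0.92 and -0.04).

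Paneth cell genes were lower after resection once length was taken into account. These are mostly very short transcripts (median 426 nt), whose length class had a median change of 1.20. All 18 tested members lay below the median of their class. As tested 8 of 18 were called lower and 0 higher, with a median of -0.97, and corrected 17 were called lower, with a median of -2.17. The 8 fell under all 3 length choices. Summed over the list the level was 19577, 67272 and 58976 CPM in Pre 2'-FL 1 to 3 and 41076, 26703 and 17502 CPM in Post 2'-FL 1 to 3. The groups overlapped through Pre 2'-FL 1. Without that library 12 members were called lower as tested, without Pre 2'-FL 2 only 2 and without Post 2'-FL 3 only 4, and corrected 15 to 17 were called with any 1 library left out. The defensin genes are near-identical and may share divided reads, so they are not separate observations.

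The defensin gene Defa20 stood at 1022, 4281 and 2163 CPM in Pre 2'-FL and at 719, 956 and 263 CPM in Post 2'-FL. Its lowest Pre library lay just above the highest Post library. Defa20 changed by -1.94 ± 0.51 (adjusted p = 0.00502) and by -3.02 ± 0.50 corrected (adjusted p = 0.000673), and by -1.23 as tested without Pre 2'-FL 2. Defa2 followed the same order (-1.82, -2.92 corrected), with -1.09 and no call as tested without Pre 2'-FL 2. Pla2g2a, a secreted phospholipase that kills bacteria, changed by -1.84 (-2.86 corrected) and was not called without Pre 2'-FL 2 (-1.44). Ang4, a microbicidal ribonuclease, went from 292, 999 and 934 CPM to 532, 315 and 159 CPM with overlap between groups (-1.15, -2.59 corrected). Its call as tested was lost without Pre 2'-FL 2 (-0.80), without Pre 2'-FL 3 (-0.94), Post 2'-FL 2 (-1.10) or Post 2'-FL 3 (-0.81). Lyz1, the Paneth cell lysozyme, and the protease gene Mmp7, which activates defensins, were at -0.37 and -0.01 as tested, not called, and at -1.38 and -1.15 corrected.

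**Figure D3:**
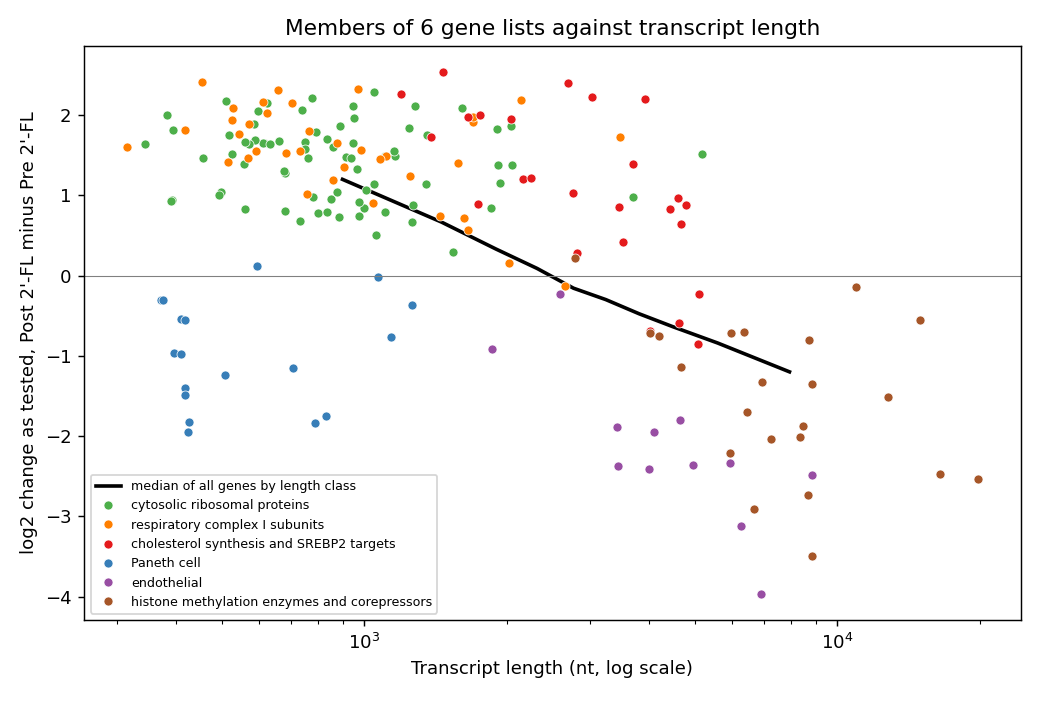
Log2 change as tested of the members of 6 gene lists (coloured points) against transcript length in nucleotides (log axis), with the median of all genes per length class as a black line. Ribosomal and complex I genes lie among the short transcripts, mostly on or above the line, 23 of 25 cholesterol genes lie above it, and all Paneth and endothelial genes lie below it.

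Genes of the terminal ileum changed in part. Fgf15, the ileal hormone gene, held 49, 143 and 40 counts (5.92, 22.3 and 6.78 CPM) in Pre 2'-FL and 0 counts in each Post 2'-FL library. Against a floor of 3 counts per library, which covers counting error only, the Post 2'-FL mean was at least 22.1-fold lower (adjusted p = 0.00448, 0.00807 corrected). Cubn encodes cubilin, the receptor that takes up cobalamin with intrinsic factor in the ileum (Entrez 65969, chromosome 2, 13276338 to 13491876). It went from 322, 260 and 334 CPM to 8.90, 31.9 and 22.5 CPM, a change of -3.85 ± 0.44 (adjusted p = 3.63e-05) and of -2.67 ± 0.40 corrected (adjusted p = 0.00038). Fabp6, the ileal bile acid binding protein, was high in Pre 2'-FL 2 alone: 0.483, 16.9 and 0.508 CPM before and 0.947, 2.00 and 0.558 CPM after. It was not called (-2.26 ± 1.76), and without that library its sign turned (1.34). Slc10a2, the ileal bile acid importer, was at 0.54, not called.

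Other genes of bile acid and cobalamin handling did not follow Cubn. Slc51b, a subunit of the basolateral bile acid exporter, rose from 78.4, 95.2 and 54.6 CPM to 342, 316 and 316 CPM (2.09 ± 0.31, 0.95 ± 0.31 corrected). Its corrected call was lost without Pre 2'-FL 3 (0.75), Post 2'-FL 2 (0.85) or Post 2'-FL 3 (1.00). In the cobalamin list 3 of 12 genes rose and 1 fell. The risers were Cd320, the cellular receptor for transcobalamin (1.98 ± 0.33, 1.91 corrected), and the mitochondrial cobalamin genes Mmaa (1.23, 1.57) and Mmab (0.95, 1.46). Amn, the membrane partner of cubilin, was at 0.20 and was not called. Among 11 proximal small bowel markers 4 were called higher (1 without Pre 2'-FL 2, 2 without Pre 2'-FL 3 or Post 2'-FL 1) and 3 lower as tested, and 1 and 0 corrected. Corrected, 3 were called higher without Pre 2'-FL 1 and 2 without Post 2'-FL 2 or 3, and 1 lower without Pre 2'-FL 1 or 2. Onecut2, a duodenal transcription factor gene, was the 1 that rose (1.51 ± 0.57, 2.52 corrected). Its groups overlapped, and its call as tested was lost without Pre 2'-FL 1 (1.65), without Pre 2'-FL 2 (1.13), Post 2'-FL 1 (1.44) or Post 2'-FL 3 (1.25).

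The largest increases by corrected change were in genes of varied function. Map3k12 (Entrez 26404, chromosome 15, 102497647 to 102517004), a kinase known for stress signalling in neurons, went from 3.14, 1.56 and 2.71 CPM to 32.4, 37.3 and 40.7 CPM. No libraries overlapped, and the change was 3.87 ± 0.90 (adjusted p = 0.00243) and 4.66 ± 0.96 corrected (adjusted p = 0.00241). In control libraries 1 to 3 after resection Map3k12 had 2.31, 35.1 and 1.00 CPM. It was not called in that arm (1.91, 2.32 corrected). The carboxylesterase gene Ces1f (chromosome 8, 93256236 to 93279766, Entrez 234564) rose by 5.16 ± 0.50 as tested and by 4.65 ± 0.48 corrected. Its levels ran from 5.47 to 6.04 CPM before and from 99.8 to 324 CPM after. Its neighbour Ces1g rose by 4.46 (4.23 corrected), and the third riser of 10 tested carboxylesterases was Ces1e (1.69, 1.38). These paralogs may share divided reads. Upb1, an enzyme of pyrimidine breakdown, had 2.90, 3.59 and 3.05 CPM before and 17.6, 16.8 and 39.1 CPM after (2.94 ± 0.37, 3.31 ± 0.36 corrected). Rab30, a small GTPase gene, rested on Post 2'-FL 3, where it had 129 CPM against 14.4 and 20.3 in the other 2. It changed by 2.73, and without that library by 1.09 (1.32 corrected), where it was not called in either fit.

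Several of these genes owe part of their rank to the length assigned to them. For Naca, a ribosome-associated chaperone subunit, the longest curated transcript has 6745 nt and the shortest 885 nt. Naca rose from 216, 287 and 255 CPM to 947, 537 and 699 CPM, a change of 1.52 ± 0.23, and the corrected change was 2.82 with the longest transcript, 1.06 with the middle one and 0.48 with the shortest. Gramd2 (2.41 as tested) was at 3.08, 2.29 and 1.85 in the same order, and Aldoc, a glycolytic aldolase, at 2.65, 2.42 and 2.22 (2.36 as tested). In contrast Dnajc15, a mitochondrial co-chaperone gene, kept 2.93, 3.08 and 2.97 (2.31 as tested), and Atg4d, a protease of autophagy, 2.65, 2.69 and 2.66 (1.34 as tested). Ebpl (1.69, 2.90 corrected), Tomm40l (1.87, 2.85), a relative of the mitochondrial import pore, and Ccdc142 (2.01, 2.76) rose with no overlap. Dnah2, an axonemal dynein gene, changed by 1.80 (3.57 corrected) and by 2.80 without Pre 2'-FL 1. Sprr2a3, a small proline-rich protein gene induced in stressed epithelium, had 103 CPM in Post 2'-FL 2 against 15.9 and 9.86 in Post 2'-FL 1 and 3. It changed by 3.76 (2.79 corrected), and by 2.02 without Post 2'-FL 2 (0.75 corrected, not called). Its corrected call was likewise lost without Pre 2'-FL 2 (2.62) or Pre 2'-FL 3 (2.76).

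**Figure D4:**
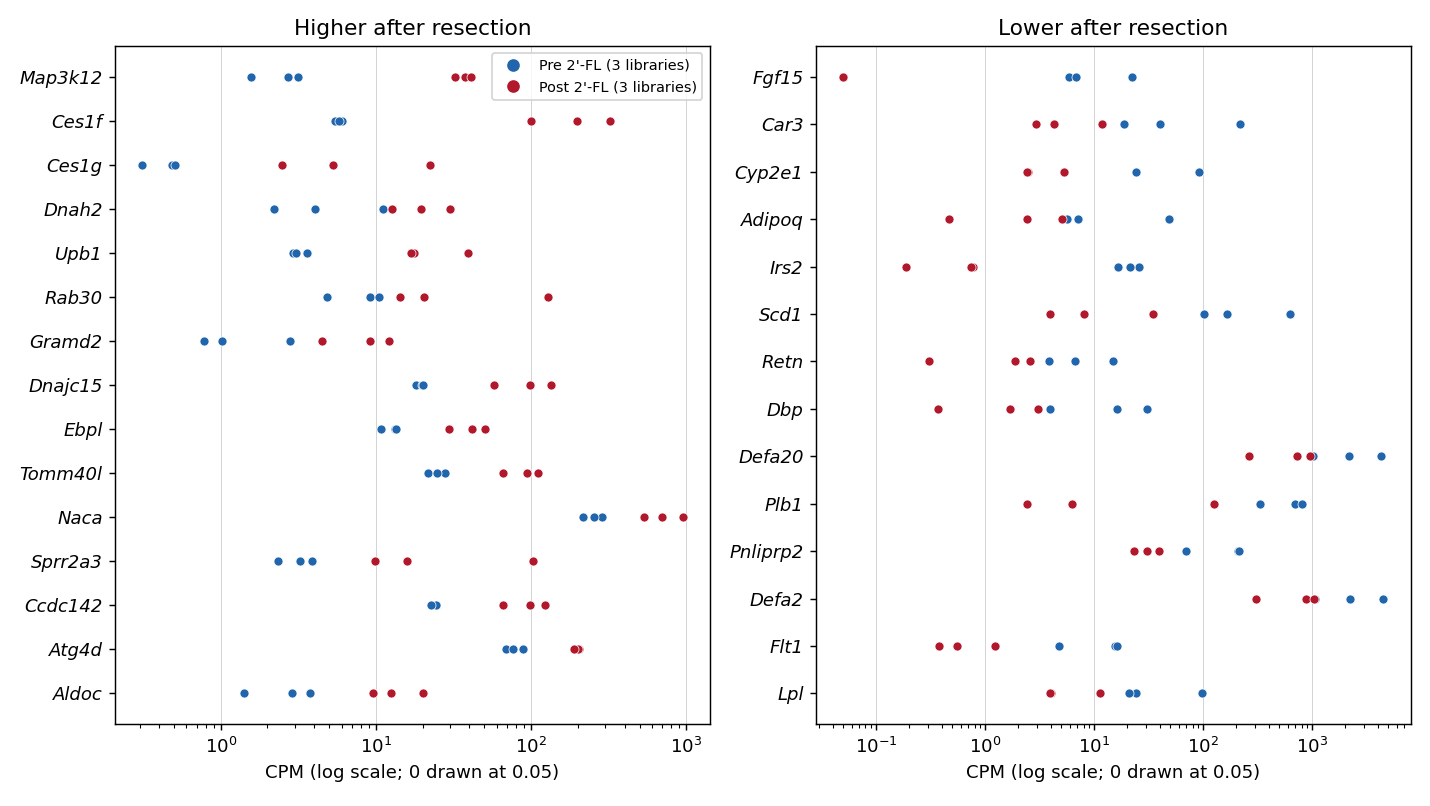
CPM per library (log axis, values of 0 drawn at 0.05) of the 15 genes with the largest corrected increase (left) and 14 of the 15 with the largest decrease (right) by the rule for named genes, Pre 2'-FL in blue and Post 2'-FL in red, 3 libraries each. The groups do not overlap for any of the 29 genes, which the rule required, and Fgf15 is at 0 in all Post 2'-FL libraries.

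Fat genes made up many of the largest decreases, and they moved with 1 library. Of 9 tested fat tissue genes 5 fell and 0 rose, with a median of -2.45 (-2.77 corrected), and all 9 lay below their class median. The summed level of the list was 626, 130 and 186 CPM in Pre 2'-FL 1 to 3 and 162, 114 and 163 CPM in Post 2'-FL 1 to 3. It was highest in Pre 2'-FL 1, while Pre 2'-FL 2 lay inside the Post range and Pre 2'-FL 3 above it. As tested 3 members were called lower without Pre 2'-FL 1 or without Post 2'-FL 2, and corrected 4 without Pre 2'-FL 1 against 7 with all libraries. Adipoq, the adipocyte hormone adiponectin, had 48.5, 5.63 and 7.12 CPM before and 5.11, 0.462 and 2.42 CPM after (-2.99 ± 0.95, -4.06 corrected). Adipoq was not called without Pre 2'-FL 1 (-1.22, and -2.29 corrected), nor as tested without Post 2'-FL 2 (-2.45) or Post 2'-FL 3 (-2.94). Retn, resistin, changed by -2.45 (-3.45 corrected) and was not called as tested without Pre 2'-FL 1 (-1.69) or Post 2'-FL 2 (-1.92). Plin1, the adipocyte lipid droplet coat gene, changed by -4.41 ± 0.88 (-4.15 corrected). Lpl, lipoprotein lipase, went from 97.7, 24.1 and 20.8 CPM to 11.4, 4.0 and 3.91 CPM (-2.91, -2.77 corrected), and was at -1.75 (-1.68 corrected) without Pre 2'-FL 1.

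Further genes named among the decreases were highest in the same library. Car3, a carbonic anhydrase gene known for its level in fat and muscle, had 219, 18.8 and 40.3 CPM before and 11.9, 2.93 and 4.28 CPM after. It changed by -3.89 ± 1.03 (-4.73 corrected), and without Pre 2'-FL 1 by -2.16, not called as tested (-3.02 corrected, called). Cyp2e1, an ethanol-oxidising cytochrome, changed by -3.58 (-4.25 corrected), and by -2.05 (-2.75 corrected) without that library. Scd1, the stearoyl-CoA desaturase, had 625, 166 and 102 CPM before and 34.8, 8.16 and 3.91 CPM after, with no overlap. Whether attached fat took part in these changes was not tested.

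Among the other large decreases, Irs2, the insulin receptor substrate, was low in every Post library. Irs2 (Entrez 384783, chromosome 8, 10984681 to 11008929) had 25.6, 21.3 and 16.4 CPM in Pre 2'-FL and 0.189, 0.770 and 0.744 CPM in Post 2'-FL. It changed by -5.15 ± 0.56 (adjusted p = 3.14e-05) and by -3.76 ± 0.56 corrected (adjusted p = 0.000344). Plb1, a brush border phospholipase, had 697, 801 and 329 CPM before and 6.25, 126 and 2.42 CPM after. Its change of -3.76 (-3.0 corrected) became -7.13 (-6.15 corrected) without Post 2'-FL 2, and corrected it was not called without Pre 2'-FL 2 (-2.74) or Post 2'-FL 1 (-2.50). Pnliprp2, a pancreatic lipase relative, fell from 70.0, 211 and 212 CPM to 23.3, 30.6 and 39.3 CPM (-2.40 ± 0.34, -2.96 corrected). In the other direction Angptl4, an inhibitor of lipoprotein lipase, rose by 1.83 (2.26 corrected).

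Several markers of vessels and nerves were lower in Post 2'-FL. Of 12 endothelial genes 4 fell and 0 rose: Pecam1 (-2.37, -1.90 corrected), Cdh5 (-2.41, -1.66), Flt1 (-3.97, -2.84) and Flt4 (-3.12, -1.78). As tested 10 were called lower and corrected 4, with medians of -2.35 and -1.25, and all 12 lay below their class median. Corrected, the count was 8 without Pre 2'-FL 1, 2 without Pre 2'-FL 3 and 1 without Post 2'-FL 1. Cdh5 lost its corrected call without Pre 2'-FL 2 (-1.55), without Pre 2'-FL 3 (-1.47), Post 2'-FL 1 (-1.53) or Post 2'-FL 2 (-1.54), and Flt1 without Post 2'-FL 1 (-2.61). The summed endothelial level was 103, 202 and 233 CPM before and 35.8, 42.8 and 54.0 CPM after, without overlap. Of 9 tested neuron and glia genes 5 fell and 0 rose, with medians of -1.29 and -1.51 corrected. Their summed level was 43.4, 58.6 and 45.1 CPM before and 59.1, 29.9 and 38.1 CPM after. These sums overlapped and were highest in Post 2'-FL 1. The neuronal tubulin gene Tubb3 changed by -2.89 (-2.85 corrected) and Elavl4 by -2.97 (-3.24). Uchl1 (-0.99, -1.51 corrected) was called as tested with all libraries and, of the leave-outs, only without Pre 2'-FL 3. The glial genes Gfap and Sox10 did not reach the count filter.

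Muscle, immune and matrix genes gave mixed values. In the visceral smooth muscle list Myh11, smooth muscle myosin, fell from 386, 339 and 147 CPM to 30.1, 61.4 and 45.8 CPM (-2.67 ± 0.40, -1.39 corrected). Tagln, transgelin, rose from 232, 258 and 124 CPM to 755, 475 and 503 CPM (1.50 ± 0.30, 1.05 corrected), and corrected was not called without Post 2'-FL 1 (0.82). The other 10 of 12 muscle genes neither rose nor fell. Among 12 macrophage and myeloid genes the receptor gene Csf1r (-2.85 ± 0.37, -2.05 corrected) and Itgax (-2.18, -1.43) fell, the latter without a corrected call when Post 2'-FL 3 was left out (-1.29). As tested 4 myeloid genes were called lower, and 2 without Pre 2'-FL 2 or Post 2'-FL 3, and corrected 4, and 7 without Pre 2'-FL 1. Cd4 (-2.35, -1.90 corrected) was the 1 T cell gene of 14 that fell. Of 11 B cell and plasma cell genes and 9 MHC class II genes, 0 rose or fell. Of 16 collagen and matrix genes 1 was called higher and 7 lower as tested, with a median of -0.78, and 9 lay above their class median. Corrected, the median was 0.23 and 3 were called higher, a count that ran from 0 to 4 with any 1 library left out. In both fits 0 rose. The corrected fit called 1 gene lower. That was Col4a2, a basement membrane collagen gene (-2.87, -1.25 corrected), which lost its corrected call without Pre 2'-FL 2 (-1.11), without Pre 2'-FL 3 (-1.16), Post 2'-FL 1 (-1.20) or Post 2'-FL 2 (-1.09).

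Genes of the respiratory chain and the ribosome were called higher almost throughout as tested, and once corrected in numbers that depended on the length choice. Of all genes 25.3% were called higher as tested and 20.6% corrected, and of the shortest length class 70.3% and 29.0%. Of 37 complex I subunits 35 were called higher and 0 lower as tested and 24 and 0 corrected, and the same 24 rose under all 3 length choices. Their median was 1.56 as tested and 0.56 corrected, with 32 of 37 above their class median. The 39 subunits of complexes II to V gave 35 higher and 1 lower as tested and 28 and 1 corrected, with medians of 1.66 and 0.78. Of 75 cytosolic ribosomal proteins 73 were called higher as tested, and corrected 42 higher and 4 lower, with medians of 1.49 and 0.55. Corrected with the transcript of middle length, 35 complex I, 34 complex II to V and 67 ribosomal genes were called higher. With the shortest transcript these counts were 31, 29 and 47. Summed ribosomal levels were 22976, 31574 and 31680 CPM in Pre 2'-FL and 103999, 57360 and 77677 CPM in Post 2'-FL, with no overlap. Corrected, 28 ribosomal genes were called higher without Pre 2'-FL 1 and 27 without Post 2'-FL 1, and 1 in place of 4 was called lower without any 1 of the other 5 libraries than Pre 2'-FL 1. Ribosomal proteins have many processed pseudogenes, with which they may share divided reads. The 31 proteasome subunits gave 26 higher and 1 lower as tested and 15 and 1 corrected, with medians of 1.09 and 0.20.

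Single subunits rose above the short-transcript level. Ndufb2, a complex I subunit of 455 nt, went from 29.7, 29.8 and 32.5 CPM to 194, 140 and 157 CPM. The groups were far apart, and the change was 2.41 ± 0.22 (adjusted p = 2.96e-05) and 1.39 ± 0.14 corrected (adjusted p = 9.81e-05), where its length class had a median of 1.20 as tested. Uqcrq of complex III (2.36, 1.71 corrected) and Atp5e of the ATP synthase (2.63, 1.60) rose likewise. Atp5g1, whose curated transcripts differ in length, was at 1.14 as tested and at 1.74, 1.00 and 0.38 corrected with the longest, middle and shortest transcript. Rpl13a had 419, 535 and 505 CPM before and 3514, 1517 and 2096 CPM after (2.29 ± 0.31, 1.50 corrected), and Rpl36 changed by 2.00 (1.37 corrected). The proteasome subunit Psma7 rose from 89.8, 77.8 and 71.8 CPM to 564, 330 and 400 CPM (2.43 ± 0.23, 1.44 corrected). The catalytic or core subunits with longer transcripts, Ndufs1 (-0.13), Atp5b (0.17) and Atp5a1 (0.14), were not called, and Sdha fell (-0.63, -0.49 corrected). In the list of complexes II to V, 0 members fell under all 3 length choices. Corrected, 0 were called lower with any 1 library other than Post 2'-FL 3 left out, and as tested 0 without Pre 2'-FL 1.

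Detoxifying enzymes rose in part. All 19 tested glutathione transferases were called higher as tested, with a median of 1.76, and 10 of them rose under all 3 length choices, with 16 of 19 above their class median and a corrected median of 0.88. Their summed level was 1278, 1100 and 1485 CPM before and 3761, 3138 and 5428 CPM after, without overlap. Gsta1 (3.68 ± 0.45, 2.40 corrected) and Gsta2 (3.59 ± 0.40, 2.30) showed the largest changes and are near-identical, so their reads may be shared. Mgst3, a microsomal member, rose from 180, 145 and 177 CPM to 871, 596 and 947 CPM (2.27 ± 0.24, 1.36 corrected). The 9 members without a corrected call included Gstm2 (0.87, -0.01 corrected), Gstk1 (0.89, -0.12) and Gsto1 (0.64, -0.13). Nqo1, a quinone reductase and NRF2 target (Entrez 18104, chromosome 8, 107388225 to 107403205), went from 15.2, 13.6 and 16.6 CPM to 111, 53.1 and 101 CPM. The change was 2.54 ± 0.27 (adjusted p = 3.14e-05) and 1.66 ± 0.21 corrected (adjusted p = 0.000155). Of 12 NRF2 targets 4 rose and 0 fell, with Srxn1 (0.96, 1.33 corrected), Gclm (0.89, 1.26) and Prdx1 (1.71, 0.99) beside Nqo1, while the haem oxygenase gene Hmox1 was at -0.90 as tested and -1.31 corrected, called only there.

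Alcohol, aldehyde and keto group enzymes followed, with 7 of 17 rising and 1 falling. Adh4 (3.52 ± 0.56, 2.48 corrected), Akr1c13 (2.67, 1.46) and Akr1c19 (3.00, 1.70) rose, and the mitochondrial Aldh1b1 fell from 403, 547 and 419 CPM to 138, 217 and 225 CPM (-1.24 ± 0.24, -1.06 corrected). Corrected, 8 of the 17 were called higher, and 3 without Pre 2'-FL 2, 5 without Pre 2'-FL 3 and 4 without Post 2'-FL 3. Of 16 cytochromes P450 8 were called higher as tested (5 without Pre 2'-FL 2, 3 without Post 2'-FL 3) and 2 corrected. One was Cyp1a1 (3.03, 3.14 corrected), from at most 0.469 CPM before to at most 3.16 CPM after. The other, Cyp2c29, had 39.3 CPM in Post 2'-FL 3 and at most 2.93 elsewhere, and was at 1.57 without that library, not called (4.46 with it). Its corrected call (3.59) was lost without any of the 3 Pre libraries (3.96, 3.06 and 4.01) or without Post 2'-FL 3 (0.70). Among the conjugating enzymes Ugt2b35 rose (1.82, 1.35 corrected, 0.90 corrected without Post 2'-FL 3), and Sult1a1 fell (-1.30, -2.21 corrected) but was not called as tested without Pre 2'-FL 3 (-1.14) or Post 2'-FL 3 (-1.16).

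Brush border genes of absorption were described by their counts beside the 11.3% of all genes that fell and the 14.2% that rose. Of 14 peptidases and phosphatases 4 fell and 1 rose. Mep1a, a meprin subunit, went from 622, 504 and 510 CPM to 53.4, 265 and 71.6 CPM (-2.07 ± 0.53, -1.92 corrected). It was at -3.12 without Post 2'-FL 2, and its corrected call was lost without Post 2'-FL 1 (-1.54) or Post 2'-FL 3 (-1.62). Corrected, 4 members of this list were called lower, 2 without Pre 2'-FL 3, and 1 without Post 2'-FL 1 or Post 2'-FL 3. Of 15 peptide and amino acid transporters 4 fell and 0 rose, and corrected 2 were called without Pre 2'-FL 1 or Post 2'-FL 3. Slc7a8 fell from 370, 236 and 376 CPM to 18.0, 69.8 and 49.1 CPM (-2.84 ± 0.40, -2.08 corrected), and Slc1a5, Slc1a1 and Slc3a2 by 1.38, 1.43 and 1.01 on the log2 scale as tested. Slc1a1 and Slc1a5 lost their corrected calls without 1 library or more, down to -0.56 without Pre 2'-FL 2 for Slc1a1 and to -0.59 without Pre 2'-FL 1 for Slc1a5. The peptide transporter gene Slc15a1 (-0.60) was not called. Of 12 disaccharidase and sugar transport genes only Khk, ketohexokinase, rose (1.73 ± 0.29, 1.65 corrected), from 286, 160 and 191 CPM to 652, 496 and 972 CPM. The lactase gene Lct (-1.80) and the glucose transporter gene Slc5a1 (-1.05) were called lower as tested and not corrected (-0.58 and -0.54).

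Lipid handling inside the enterocyte moved in both directions. Fabp2, the intestinal fatty acid binding protein, had 7909, 4418 and 3024 CPM before and 42484, 33631 and 34915 CPM after (2.85 ± 0.42, 1.21 ± 0.40 corrected, adjusted p = 0.0309). No libraries overlapped, but the corrected call was lost without Pre 2'-FL 2 (1.12), without Pre 2'-FL 3 (0.94), Post 2'-FL 2 (1.08) or Post 2'-FL 3 (1.22). Dbi, an acyl-CoA binding protein of 569 nt, rose by 2.28 (0.95 corrected). Apoc2, the apolipoprotein that activates lipoprotein lipase, went from 433, 119 and 285 CPM to 2977, 1132 and 2090 CPM (2.89 ± 0.45, 2.07 corrected), and Apoe fell from 170, 227 and 297 CPM to 66.8, 78.8 and 85.8 CPM (-1.58 ± 0.31, -1.79 corrected). In the chylomicron list 5 of 14 rose and 1 fell, with 1 of the 5, Acat1, known as a mitochondrial thiolase. Without Pre 2'-FL 1 this list had 10 members called higher as tested against 6 with all libraries, and 8 against 5 corrected. Apob was at -1.48 as tested and -0.44 corrected, and Mttp at -0.08. In fatty acid oxidation 6 of 20 rose and 0 fell, led by Acads (0.79, 0.95 corrected) and Etfb (1.35, 0.66). As tested 13 of these 20 were called higher, and 6 without Post 2'-FL 3, and corrected 6, and 2 without that library or 3 without Pre 2'-FL 2.

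Growth factor signalling genes are long transcripts, and how many of their calls were kept under correction depended on the length choice. Of 19 insulin and IGF signalling genes (median 7052 nt) 17 were called lower as tested with a median of -1.46, and corrected 5 were lower and 2 higher with a median of -0.31. Corrected with the shortest transcript 7 were called lower, and with the middle one 10. Beside Irs2 the genes that fell were Pik3r1 (-1.94, -1.15 corrected), Igf1r (-2.70, -1.28), Igfbp3 (-1.46, -1.33) and Igfbp5 (-2.49, -1.46). The corrected count lower was 2 without Pre 2'-FL 2 or Post 2'-FL 1 and 3 without Post 2'-FL 3, and Igf1r lost its corrected call without Pre 2'-FL 2 (-1.10), Post 2'-FL 1 (-1.22) or Post 2'-FL 2 (-0.88). Erbb3, a neuregulin receptor, fell from 257, 208 and 172 CPM to 13.6, 67.9 and 22.3 CPM (-2.61 ± 0.48, -1.57 corrected, and -2.36 corrected without Post 2'-FL 2). Ereg, which encodes the EGF family growth factor epiregulin, rose from 6.04, 7.5 and 5.08 CPM to 19.5, 13.6 and 35.3 CPM (1.87 ± 0.52, 1.70 corrected). The corrected call of Ereg was lost without Pre 2'-FL 1 (1.68), without Pre 2'-FL 3 (1.61) or Post 2'-FL 3 (1.04).

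Chromatin genes gave the same picture. Of 22 histone methylation enzymes and corepressors (median 7796 nt) 19 were called lower and 0 higher as tested, with a median of -1.43, and corrected 7 lower and 3 higher with a median of -0.15. The 7 fell under all 3 length choices. Corrected with the shortest transcript 9 were called lower, and with the middle one 11. Setd1b, a histone methyltransferase (Entrez 208043, chromosome 5, 123142040 to 123168630), had 27.6, 24.5 and 25.8 CPM before and 0.947, 3.54 and 2.23 CPM after. It changed by -3.49 ± 0.34 (adjusted p = 2.96e-05) and by -1.76 ± 0.27 corrected (adjusted p = 0.000416), where the longest length class had a median of -1.20 as tested. Kdm6b, a histone demethylase, changed by -2.91 (-1.33 corrected) and Kmt2a by -2.47 (-0.84). Kmt2c (-0.55, 0.85 corrected) and Kdm5a (-0.15, 0.76) were called higher only when corrected. Malat1, a nuclear-retained RNA, fell from 105, 95.9 and 162 CPM to 20.8, 25.3 and 14.3 CPM (-2.58 ± 0.31, -2.03 corrected).

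**Figure D5:**
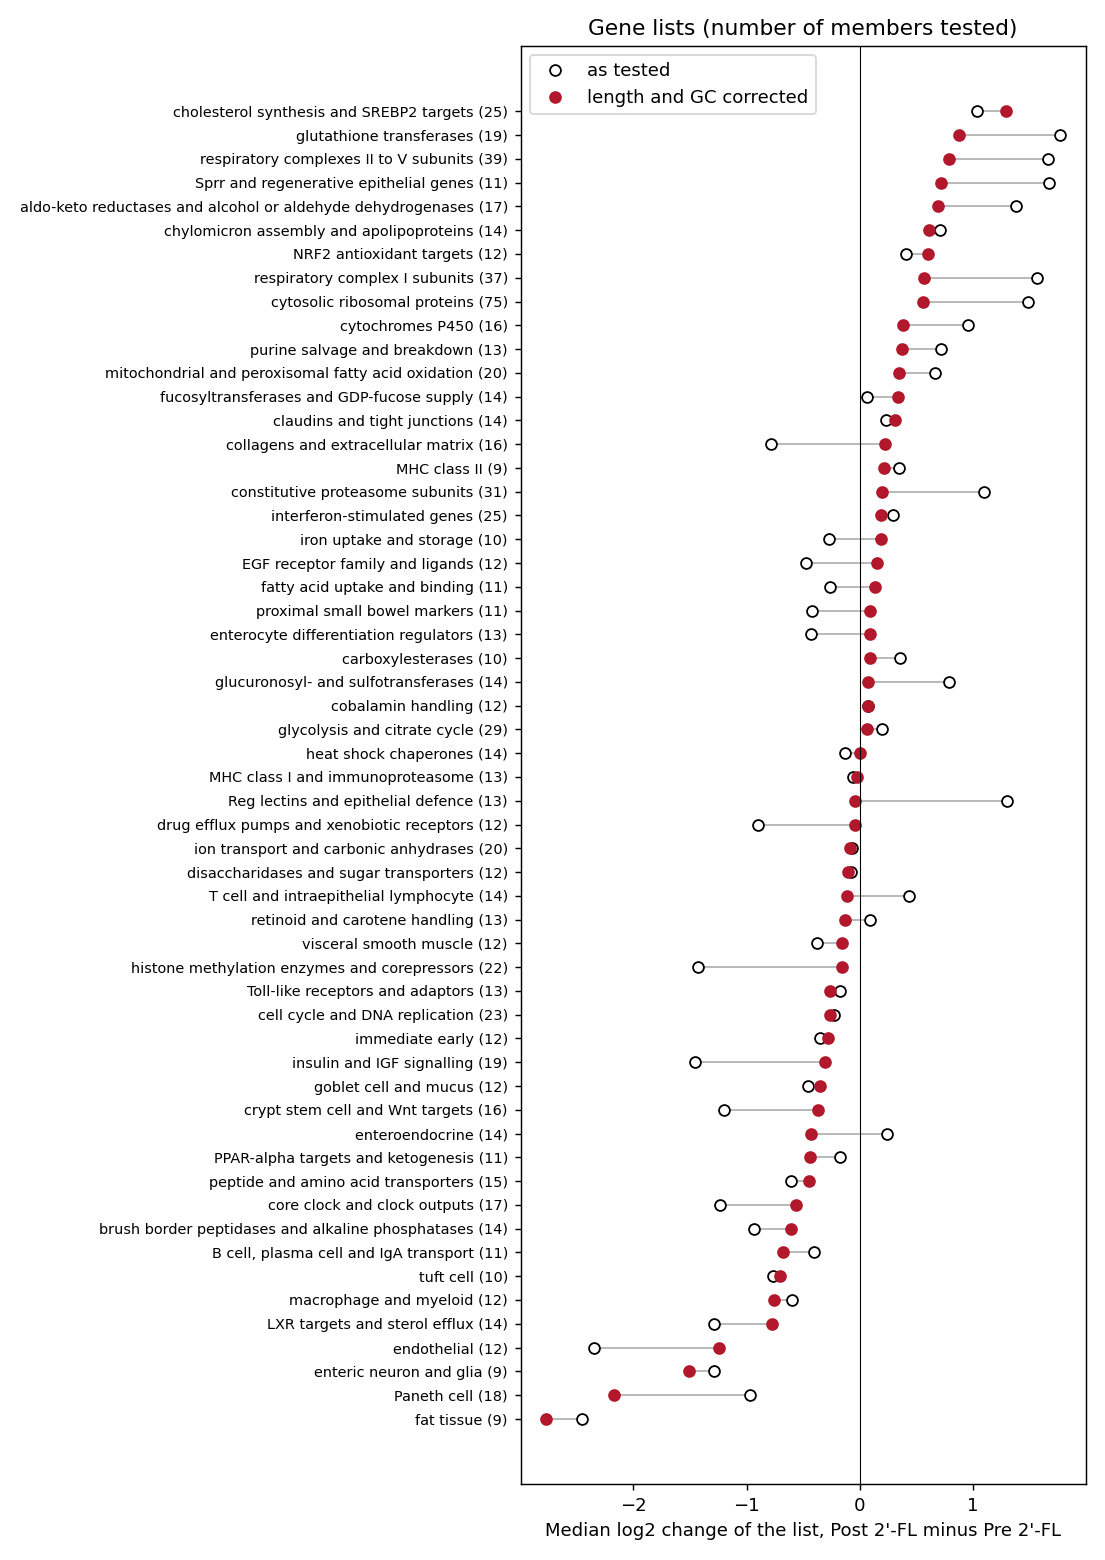
Median log2 change, Post 2'-FL minus Pre 2'-FL, of gene lists with at least 9 tested members (number in brackets), as tested (open circles) and with length and GC corrected (red), ordered by the corrected median. Cholesterol synthesis lies highest at 1.29 and fat tissue lowest at -2.77, and lists of long transcripts such as histone methylation move from -1.43 to -0.15.

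Among 17 clock genes 2 rose and 3 fell, beside 14.2% and 11.3% of all genes, so the counts were near the background. Dbp, a clock-controlled transcription factor gene, had 30.3, 3.91 and 16.1 CPM before and 3.03, 1.69 and 0.372 CPM after (-3.31 ± 0.63, -3.06 corrected). Nr1d1, the repressor REV-ERB-alpha, went from 153, 52.5 and 75.4 CPM to 4.36, 19.4 and 5.95 CPM (-3.22 ± 0.62, -2.73 corrected), and Hlf changed by -2.77 (-2.15). Cry1 rose (0.90, 1.30 corrected). The period genes Per1, Per2 and Per3 were called lower as tested (-2.23, -1.88 and -2.02) and not corrected (-0.99, -0.63 and -0.83), and Arntl was at 0.37, not called. The list's median was -1.23 as tested and -0.56 corrected. The hour of collection is not in the labels.

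Defence genes included some of the most abundant transcripts. Reg3b, an antibacterial lectin gene, had 3204, 8829 and 11000 CPM in Pre 2'-FL and 64832, 18692 and 41207 CPM in Post 2'-FL, with no overlap. It was called as tested (2.44 ± 0.73, adjusted p = 0.0113), but not without Post 2'-FL 1 (1.97) and not corrected (0.95 ± 0.61, adjusted p = 0.237). Slpi, a secreted protease inhibitor, rose from 1.69, 1.25 and 2.37 CPM to 12.5, 14.2 and 18.0 CPM (3.07 ± 0.51, 2.23 corrected). Sprr2a1 and Sprr2a2, a near-identical pair that may share reads, changed by 2.03 and 2.01 (1.58 and 1.45 corrected). Their corrected calls were lost without Pre 2'-FL 2 (1.48 and 1.35), without Pre 2'-FL 3 (1.45 and 1.32) or Post 2'-FL 3 (1.38 and 1.24). Of 25 interferon-stimulated genes 3 rose and 1 fell, no more than the 14.2% and 11.3% of all genes, with medians of 0.29 and 0.19 corrected. Corrected, 5 were called higher, 8 without Pre 2'-FL 1, 3 without Post 2'-FL 3 and 2 without Post 2'-FL 2 or either of Pre 2'-FL 2 and 3. Isg15 rose from 27.7, 14.2 and 16.6 CPM to 79.3, 63.0 and 86.9 CPM (1.96 ± 0.26, 0.95 corrected), and the RNA sensor gene Ddx58 changed by -1.40 (-1.04), with no corrected call without Pre 2'-FL 1 (-0.75) or Post 2'-FL 1 (-0.69). Among 13 Toll-like receptor and adaptor genes 3 fell (corrected 4 were called lower, and 2 without Pre 2'-FL 3 or Post 2'-FL 3), with Tlr9 at 2.30, 1.25 and 1.86 CPM before and 0.189, 0 and 0 CPM after (-4.60, -3.91 corrected, -6.59 corrected without Post 2'-FL 1).

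Crypt and secretory genes outside the Paneth lineage were counted beside the 11.3% of all genes that fell and the 14.2% that rose. The counts of stem cell, cell cycle and enteroendocrine genes that fell were near that share, while 4 of 12 goblet cell genes fell. Of 16 stem cell and Wnt target genes 11 were called lower as tested (7 without Pre 2'-FL 2), with a median of -1.20, and 1 fell in both fits, Tnfrsf19 (-2.03, -1.40 corrected, -1.05 and not called corrected without Pre 2'-FL 2). Lgr5, the stem cell receptor, was called lower as tested (-1.17) and not corrected (-0.55), and Olfm4 was at -0.16. In the cell cycle list 2 of 23 rose and 4 fell, and corrected 2 were called lower without any 1 of the 5 libraries other than Pre 2'-FL 1. Plk1, a mitotic kinase, fell (-1.62 ± 0.33, -1.47 corrected), as did the replication helicase genes Mcm3 (-1.16, -0.72) and Mcm6 (-1.31, -0.76) and Top2a (-1.33, -0.92). Birc5, survivin, rose by 1.33 (1.57, 1.04 and 0.50 corrected with the longest, middle and shortest transcript). Of 12 goblet cell genes 4 fell and 0 rose: Muc2 (-1.15, -0.77 corrected), Clca1 (-1.81, -1.76), Galnt12 (-0.85, -0.69) and Muc3 (-1.69, -2.16). As tested 5 of the list were called lower and 4 higher, and corrected 4 and 0 (2 higher without Post 2'-FL 2). The summed goblet level was 9564, 9508 and 10164 CPM in Pre 2'-FL 1 to 3 and 12577, 8589 and 14641 CPM in Post 2'-FL 1 to 3, with overlap. Of 14 enteroendocrine genes 2 were called higher and 5 lower corrected (leaving out Post 2'-FL 3 left 0 higher, and leaving out Pre 2'-FL 2 or 3 left 1), and 5 and 2 as tested (1 lower without Pre 2'-FL 2, Post 2'-FL 1 or 3). Chgb (-1.53 ± 0.28, -1.18 corrected) and Pyy (-1.66, -2.45) fell in both fits, and Cck rose (1.74, 0.96). Pyy lost its call as tested without Pre 2'-FL 2 (-1.37), Post 2'-FL 1 (-1.29) or Post 2'-FL 3 (-1.32) and was at -2.90 without Post 2'-FL 2 (-3.80 corrected), and Cck lost its corrected call without Pre 2'-FL 3 (0.90) or Post 2'-FL 3 (0.56). Among transcription factors of the enterocyte, Klf5 fell from 89.1, 106 and 103 CPM to 18.6, 32.2 and 23.6 CPM (-2.0 ± 0.22, -1.71 corrected).

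Members of several smaller groups also changed. Ada, adenosine deaminase, went from 411, 112 and 92.5 CPM to 1286, 1534 and 807 CPM (2.56 ± 0.47, 2.29 corrected), and 5 of 13 purine salvage genes rose and 2 fell, the AMP deaminases Ampd2 (-1.89, -0.99) and Ampd3 (-1.41, -0.72). The barrier claudin gene Cldn4 rose from 61.5, 24.5 and 60.8 CPM to 93.2, 209 and 141 CPM (1.59 ± 0.40, 1.53 corrected), as 1 of 5 risers among 14 tight junction genes. Corrected, 2 of the 14 were called higher without Post 2'-FL 2 or either of Pre 2'-FL 1 and 3, and 3 without Post 2'-FL 1. Tfrc, the transferrin receptor, rose (1.24, 1.22 corrected), and Epas1, the hypoxia factor HIF-2-alpha that drives iron uptake, fell (-2.21, -1.13). Since the arm received a fucosylated sugar, fucose genes were read as a group: 3 of 14 rose and 1 fell, near the 14.2% and 11.3% of all genes. Fuca1, lysosomal fucosidase, rose from 159, 156 and 179 CPM to 354, 320 and 362 CPM (1.07 ± 0.18, 1.31 corrected), and Gmds, which makes GDP-fucose, by 1.12 (0.72 corrected). Slc35c1, the Golgi GDP-fucose transporter, fell (-1.21, -0.58). Fut2, the enterocyte fucosyltransferase, had 1.21, 9.53 and 3.22 CPM before and 4.73, 1.23 and 2.60 CPM after and was not called (-0.70 ± 0.64). Its sign turned without Pre 2'-FL 2 (0.46), and it was at -1.11 without Pre 2'-FL 1, -1.27 without Post 2'-FL 1 and -0.32 without Post 2'-FL 2.

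Some large changes as tested were not called once corrected, though each was larger than the median of its length class (1.20 for Fabp1 and Polr2k, -0.84 for Ltbp4, and -1.20 for Plec, Fasn and Lphn1). A lost call does not show that length accounts for the whole change, and Fabp1 and Ltbp4 kept large corrected values. Fabp1, the liver fatty acid binding protein also made by proximal enterocytes, went from 1254, 313 and 834 CPM to 5374, 2080 and 8902 CPM without overlap (2.77 ± 0.53, adjusted p = 0.0007). Corrected it was at 1.14 ± 0.51 (adjusted p = 0.0932). Polr2k, an RNA polymerase subunit of 601 nt, was at 8.46, 8.44 and 8.47 CPM before and at 64.0, 27.6 and 46.9 CPM after (2.44 ± 0.33), and corrected at 0.22 ± 0.22. At the other end Plec, the cytolinker plectin with a transcript of 15455 nt, went from 344, 265 and 263 CPM to 20.1, 76.8 and 41.5 CPM (-2.65 ± 0.42), and corrected was at -0.57 ± 0.29. Fasn (-2.83), Ltbp4 (-2.88) and Lphn1 (-2.61) likewise had no call corrected (-0.92, -1.36 and -0.88). Several of these lost calls depended on the length choice. Corrected with the transcript of middle length, Fabp1 (2.115), Polr2k (1.18), Ltbp4 (-1.42) and Lphn1 (-1.15) were called, while Plec (-0.77) and Fasn (-1.07) were not. With the shortest transcript only Ltbp4 of these genes was called (-1.73). Genes that turned sign between fits with a call in both included Mtor (-0.72, 0.85 corrected) and Psma4 (0.92, -0.37), picked from the lists after their values were seen.

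The control arm was set beside these values because its mice had the same operation without the supplement. As tested 1415 genes were called there (10.8%), and corrected 1618 (12.4%). The difference between the arms, tested as the interaction, was called for 2038 genes as tested (15.5%) and for 0 corrected, where edgeR gave 2614 genes at an unadjusted p under 0.05 and a smallest adjusted p of 0.0557. Of the 75 ribosomal genes 71 differed between arms as tested, and 0 corrected. Corrected changes in the 2'-FL and control arms were 2.21 and 1.71 for Tm7sf2, 4.65 and 3.64 for Ces1f, -2.07 and -3.28 for Abca1, -2.67 and -2.10 for Cubn and -3.76 and -0.50 for Irs2. List medians, corrected, in the same order were 1.29 and 0.79 for cholesterol synthesis, -2.17 and -2.05 for Paneth cell genes, -2.77 and -0.36 for fat tissue genes, and 0.19 and 1.17 for interferon-stimulated genes, where 5 and 13 of 25 were called higher. For none of these 5 single genes was the corrected difference between arms called, and the differences between list medians were not tested.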

How the data were processed

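RNA from small bowel was sequenced in 12 libraries (TruSeq kit with about 1.5 ug of RNA, Illumina HiSeq sequencing, per the labels' protocols), 3 in each of 4 groups. The authors deposited estimated counts of reads per gene entry, raw per the file headers, 1 table per library and not scaled to depth. Between 15.2% and 20.5% of the entries were fractional. The submitters' processing notes name build mm10 and DESeq, and the aligner, counter, annotation and strand setting are not given in the sources used here. Counts of entries with one Entrez ID were summed and rounded to whole numbers, and 0 columns of per-sample values were left unused.

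All 12 libraries entered 1 fit in edgeR 4.0.16 (R 4.3.3; TMM scaling, filterByExpr by group, quasi-likelihood F test, Benjamini-Hochberg adjustment over all genes tested, 8 residual degrees of freedom), so that the 4 groups share 1 estimate of the spread. The standard error is the log2 change divided by the root of F. The fit was tested on simulated data. For the correction, each library's log2 CPM (prior count 2), centred per gene, was fitted with splines of 4 degrees of freedom on log2 transcript length and on GC content, and the fit entered as offsets. Lengths came from the longest GENCODE M21 transcript matched to a curated RefSeq mRNA, and gene coordinates are on GRCm38 (mm10).

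The members and the 60 gene lists were chosen with earlier results of these data known. Named genes were the 15 largest corrected changes each way among genes called in both fits, with a mean of at least 5 CPM, no overlap between groups and no placeholder symbol. To these were added up to 3 members per list with the smallest corrected p among those called in both fits, the 5 largest changes each way as tested that were not called corrected, and always Fgf15, Fabp6, Reg3b, Reg3g and Fut2. Other list members are given with their values and belong to no such selection. Leave-outs were computed for the 179 genes so named and for the list counts. Same-numbered Pre and Post libraries did not deviate together, so the numbers were not used as pairs. Alternatives were RLE and upper quartile scaling, DESeq2 1.42.0, limma 3.58.1 (voom), 2 other filters, the 6 libraries of the arm alone, a fold threshold, the replicate block, other transcript lengths and each library left out. The shortest transcript was chosen after seeing the data. Results for a few genes are not reported here, though the list counts include them.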

Additional observations from a re-analysis of the deposited data

Results flagged for a closer look

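Among the named genes 54 differed between the 2'-FL and the control arm as tested, by edgeR's interaction test with an adjusted p under 0.05, beside 15.5% of all genes. Many of the 179 named genes were picked for a large change in the 2'-FL arm, so the count is not independent of that choice. The values here are the log2 change of the 2'-FL arm minus that of the control arm. None of the 54 was called once length and GC content were corrected, where 2614 of all genes had an unadjusted p under 0.05.

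The difference was positive for Dbp (3.28), Akr1c13 (2.42), Cd320 (2.13), Gsta2 (2.00), Rpl13a (1.99), Atp5e (1.91), Rpl36 (1.86), Ndufb2 (1.78), Ugt2b35 (1.74), Immp1l (1.72), Uqcrq (1.72), Dnajc15 (1.71), Nqo1 (1.69) and Birc5 (1.67). It was also positive for Tagln (1.67), Psma7 (1.67), Polr2k (1.63), Ndufb8 (1.62), Rps15a (1.62), Hspe1 (1.61), Mgst3 (1.49), Gmds (1.49), Ccdc142 (1.37), Car4 (1.37), Gstt2 (1.30) and Naca (1.29), and for Dbi (1.26), Ndufab1 (1.25), Psma3 (1.12), Nr1h3 (1.11), Etfb (1.08), Atp5g1 (1.00), Atg4d (0.96) and Fh1 (0.87).

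The difference was negative for Irs2 (-4.22), Cyp2e1 (-3.69), Erbb3 (-2.81), Setd1b (-2.71), Rdh1 (-2.54), Kdm6b (-2.28), Plec (-2.23), Malat1 (-2.0), Hk1 (-1.90), Kmt2a (-1.86) and Slc7a8 (-1.71), and for Ddx58 (-1.67), Klf5 (-1.62), Csf1r (-1.53), Chgb (-1.46), Zfp36 (-1.37), Traf6 (-1.35), Bag3 (-1.24), Epas1 (-1.22) and Pik3r1 (-1.19).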

How the results depend on the processing

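The counts of genes called as tested (7274, with 3325 higher and 3949 lower) ran from 6511 to 7319 under RLE or upper quartile scaling, DESeq2, limma voom, no filter and a stricter filter. With length and GC content corrected 4644 were called, 1952 of them lower, and 2425 were lower with length corrected only and 2093 with the shortest transcript. The transcript of middle length moved the corrected counts most, to 5957 called, 3303 higher and 2654 lower. Of these 4762 were called in the same direction as tested, beside 3334 with the longest transcript. A log2 change of at least 1 left 2015 higher and 2848 lower as tested, and 1153 and 1084 corrected. The replicate block gave 6909 called, and 4364 (1868 lower) with the correction; the pairs' correlations were -0.12, -0.06 and 0.22, so the numbers are not taken as pairs. Leaving out 1 library gave 6215 to 7128 called (2913 to 3360 higher, 3076 to 3809 lower) as tested. Corrected, without Pre 2'-FL 1, 2 and 3 in turn 4257, 3550 and 3535 were called (2519, 2162 and 2141 higher, 1738, 1388 and 1394 lower), and without Post 2'-FL 1, 2 and 3 3416, 4500 and 3662 (2175, 2634 and 2245 higher, 1241, 1866 and 1417 lower), with fewer samples. Over the named genes and alternatives 4297 values kept their direction and side of the threshold, 335 kept the direction without a call and 7 turned sign. Those 7 were Erap1 at 0.061 with length corrected only, Fuca2 at -0.10 with the middle transcript, Fabp6 at 1.34 and 0.19 corrected without Pre 2'-FL 2, and Fut2 at 0.46 and 0.79 corrected without Pre 2'-FL 2 and 0.12 corrected without Post 2'-FL 2. As tested, leaving out 1 library put Fabp6 between -2.93 and 1.34 and Fut2 between -1.27 and 0.46. The cause was not tested. With 3 libraries a group, genes of few counts, such as Cyp1a1, Tlr9 and Fut2, carry wide errors.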
